A study of Mus musculus with 9 samples.

Results

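The 10 genes described here are genes known for cartilage matrix and for its regulation, namely Acan, Sox9, Sox5, Comp, Matn3, Matn4, Otor, Hapln1, Chad and 1500015O10Rik, and they are 10 of the 49548 genes in each deposited table. They were chosen by gene name for this function and with their levels in hTNFtg versus wild-type (WT) synovial fibroblasts (SFs) already known, so their difference between those groups is a description, and calls in it only count these genes beside all others. Collagens are not among them. RNA came from cultured ankle joint SFs of 8-week-old CBA C57BL/6J mice, in 3 groups of 3 biological replicates. The first group was WT. The second was hTNFtg, a line that carries a human TNF transgene and develops polyarthritis. The third was hTNFtg SFs kept for 48 h with infliximab, an antibody that binds TNF, at 1 µg/mL. By the labels the WT group and the hTNFtg group without infliximab had no treatment, while vehicle is described in the methods of the study. In every group CD45+ cells had been removed at passage 1. The transgene itself was not analysed here, and the cells had passed through culture, which limits them as a model of the joint.

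SOX9 is the transcription factor that chondrocytes need to form, and SOX5 acts beside it on the genes of cartilage matrix. Aggrecan, encoded by Acan, is the large proteoglycan that holds water in cartilage, and the link protein encoded by Hapln1 ties it to hyaluronan. COMP, matrilins and chondroadherin bind collagen fibres, other matrix molecules or the cell surface, while Otor encodes a small secreted protein of the MIA family and 1500015O10Rik, also known as Ecrg4, encodes the precursor of a secreted peptide. COMP and SOX9 are also made in tendon, ligament and fibroblasts of the joint, so they do not mark chondrocytes alone.

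Values are normalized counts, that is, reads per gene scaled by the authors and rounded, and 1 factor per library was assumed here. By an estimate from the pattern of the rounded low values, hTNFtg replicate 1 held 613218 reads on genes and the other 8 libraries about 3828381 to 9014873. In the other 8, 1 read is worth 0.534 to 1.10 normalized counts. Such steps leave few or no gaps, so the reads of these libraries are more approximate. A gene with 3 reads, taken as the floor, stood at 18.7 normalized counts in hTNFtg replicate 1 and at 1.60 to 3.31 in the others, which covers counting error only. Infliximab replicate 3 also stood apart, because 9 hepatocyte genes reached a sum of 766 normalized counts there against 12 to 45 elsewhere. Genes that define chondrocytes were scarce in all groups. The sum of 9 such genes was 99 to 156 in WT SFs, 48 to 94 in hTNFtg SFs and 56 to 149 with infliximab. Col2a1, the main cartilage collagen, made up most of it and ranged from 37 to 133 with all groups overlapping. Snorc, listed as 3110079O15Rik, was at 0 in every library, Matn1 did not exceed 2, Matn3 did not exceed 4 and Col11a2 did not exceed 11. The other 4, with Acan among them, were lower in both hTNFtg groups. Acan, Col9a1, Lect1 and Ucma had means of 12.3, 11.3, 18 and 5 normalized counts in WT SFs, of 0.333, 0, 4 and 0 in hTNFtg SFs and of 1.33, 0.333, 1 and 0 with infliximab. Their part in the results was not tested. The sum of 10 fibroblast markers, carried mostly by Col1a1 and Col1a2, was between 36240 and 53209. In bulk libraries such as these, fewer cells of a type and less RNA per cell cannot be told apart.

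Most of the RNA of the 10 genes was Comp and Sox9, which together made up 85.4% to 93.3% of their summed normalized count in each library. That sum was 7133, 6968 and 10284 in WT replicates 1, 2 and 3. It was 554, 1214 and 833 in hTNFtg SFs and 2636, 2073 and 923 with infliximab. Every hTNFtg library lay below every WT library, and the infliximab libraries lay below WT but overlapped with untreated hTNFtg SFs through replicate 3.

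**Figure D1:**
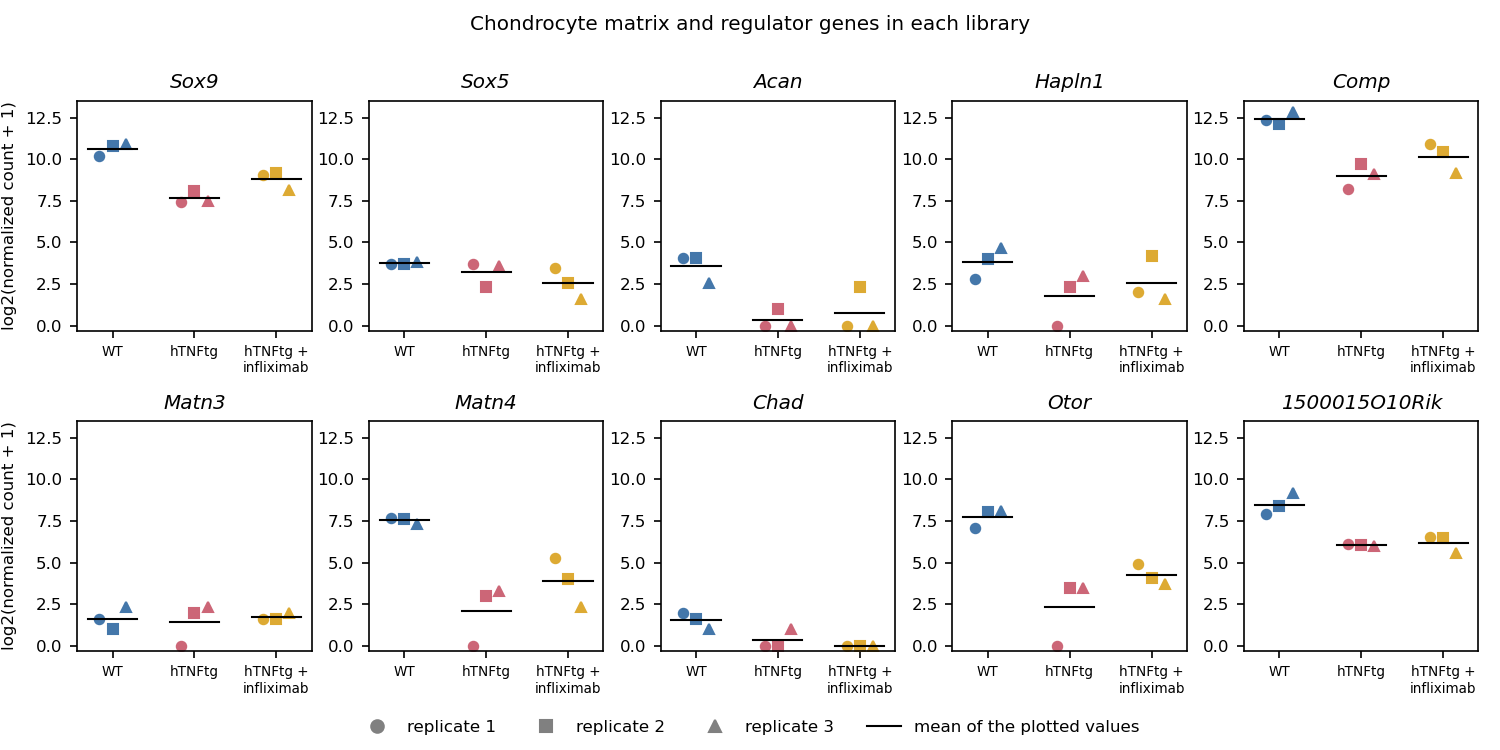
Level of each of the 10 genes in each library as log2 of the normalized count plus 1 (vertical axis), by group, with 1 marker shape per replicate number and a line at the mean of the plotted values. Sox9, Comp, Matn4, Otor, 1500015O10Rik and Acan had every hTNFtg library below every WT library, and Matn3 and Chad stayed near 0 in all groups.

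Sox9 lies on chromosome 11 of mm10, from 112782224 to 112787760 on the plus strand. Its normalized count was 1160, 1761 and 1939 in WT SFs, 174, 272 and 179 in hTNFtg SFs and 527, 572 and 281 with infliximab. The groups formed 3 steps without overlap, with WT highest and untreated hTNFtg lowest. The means were 1620 ± 408 (SD, n = 3), 208 ± 55.2 (SD, n = 3) and 460 ± 157 (SD, n = 3), so that hTNFtg SFs held 12.9% and infliximab-treated SFs 28.4% of the WT mean. The lowest value, in the shallow hTNFtg replicate 1, rested on 28 reads, with an exact 95% Poisson interval of 116 to 252.

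Sox5, on the minus strand of chromosome 6 from 143828425 to 144781977, was far scarcer. Its normalized count was 12, 12 and 13 in WT SFs, 12, 4 and 11 in hTNFtg SFs and 10, 5 and 2 with infliximab. Untreated hTNFtg SFs overlapped with WT, whereas all infliximab libraries were below WT. The value of 12 in hTNFtg replicate 1 came from 2 reads and is below the floor of that library. Its mean was 12.3 ± 0.577 (SD, n = 3) in WT, 9 ± 4.36 (SD, n = 3) in untreated and 5.67 ± 4.04 (SD, n = 3) in infliximab-treated SFs, and the last 2 groups overlapped. Whether Sox5 and Sox9 differed in pattern was not tested.

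Acan, on the plus strand of chromosome 7 from 79053483 to 79115099, was low even in WT SFs, at 16, 16 and 5 normalized counts. It was at 0, 1 and 0 in hTNFtg SFs and at 0, 4 and 0 with infliximab. Both hTNFtg groups lay wholly below WT. Since every untreated hTNFtg library had at most 3 reads, the fold was computed against the mean floor of that group, 7.62 normalized counts, and Acan was at least 1.62-fold lower than in WT SFs. Leaving out hTNFtg replicate 1, whose depth sets this floor, raised the bound to at least 5.92-fold lower. Hapln1, on the plus strand of chromosome 13 from 89540636 to 89611832, stood at 6, 15 and 24 in WT SFs, at 0, 4 and 7 in hTNFtg SFs and at 3, 17 and 2 with infliximab. All 3 groups overlapped for this link protein gene.

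Comp, on the plus strand of chromosome 8 from 70373558 to 70382066, was the most abundant of the 10 genes in every library. Its normalized count was 5353, 4373 and 7288 in WT SFs, 299, 848 and 550 in hTNFtg SFs and 1933, 1355 and 573 with infliximab. The hTNFtg mean of 566 ± 275 (SD, n = 3) was 9.97% of the WT mean of 5671 ± 1483 (SD, n = 3). With infliximab the mean was 1287 ± 683 (SD, n = 3), or 22.7% of WT. Infliximab replicates 1 and 2 were above every untreated hTNFtg library, but replicate 3 was within their range. The hTNFtg replicate 1 value was counted on 48 reads, with an exact 95% Poisson interval of 220 to 396.

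Matn4 and Matn3 encode matrilins. Matn4, on the minus strand of chromosome 2 from 164389393 to 164405160, was at 205, 194 and 160 normalized counts in WT SFs, at 0, 7 and 9 in hTNFtg SFs and at 38, 15 and 4 with infliximab. It kept 2.86% of the WT mean in hTNFtg SFs and 10.2% with infliximab, and both groups were wholly below WT. Matn3, on the plus strand of chromosome 12 from 8947929 to 8972028, was near the floor throughout, at 2, 1 and 4 in WT SFs, 0, 3 and 4 in hTNFtg SFs and 2, 2 and 3 with infliximab. No difference in Matn3 was detectable at this depth.

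Otor, on the plus strand of chromosome 2 from 143078473 to 143081713, was wholly below WT in both hTNFtg groups, as Matn4 was. Its normalized count was 133, 261 and 278 in WT SFs, 0, 10 and 10 in hTNFtg SFs and 29, 16 and 12 with infliximab. The 3 groups did not overlap, whereas treated and untreated hTNFtg SFs overlapped for Matn4. The Otor means of hTNFtg and infliximab-treated SFs were 2.98% and 8.48% of WT. In hTNFtg replicate 1 the value of 0 has an upper limit of 23.0 by the exact 95% Poisson interval, which reaches into the infliximab values. Chad, which encodes the leucine-rich protein chondroadherin, lies on the plus strand of chromosome 11 from 94565047 to 94569127. It was at 3, 2 and 1 in WT SFs, 0, 0 and 1 in hTNFtg SFs and 0 in all infliximab libraries. Every group was at or under the floor, so no fold is given for it. Acsf2, a gene of the opposite strand that covers Chad entirely, had at most 3 normalized counts in any library.

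The gene 1500015O10Rik, on the plus strand of chromosome 1 from 43730602 to 43742578, stood at 243, 333 and 572 normalized counts in WT SFs. It was at 69, 65 and 62 in hTNFtg SFs and at 94, 87 and 46 with infliximab. Both hTNFtg groups were wholly below WT and overlapped with each other, at 17.1% and 19.8% of the WT mean. Its 3′ end, where this kind of sequencing reads, is overlapped over 618 bp by the antisense gene Gm29155, at 43741961 to 43743895 on the minus strand. Gm29155 was at 153, 141 and 187 normalized counts in WT SFs, 37, 33 and 22 in hTNFtg SFs and 59, 40 and 27 with infliximab. The antisense gene was thus lower in both hTNFtg groups too, at 32.7% to 63.0% of the 1500015O10Rik value within each library. Whether strand was used in the counting is not given in the sources used here, so reads of this pair cannot be told apart with certainty.

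**Figure D2:**
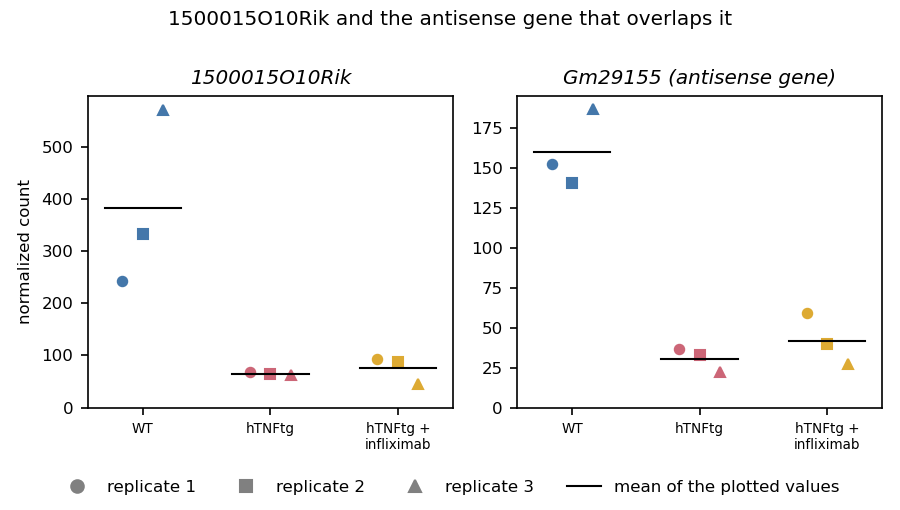
Normalized count (vertical axes, different ranges) of 1500015O10Rik and of the antisense gene Gm29155 that overlaps its 3′ end, in each library by group, with a line at the group mean. In both panels all WT libraries lie above all hTNFtg and infliximab libraries.

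Promoter sequences of RefSeq on build GRCm38.p6, which has the coordinates of mm10, were matched by symbol for 8 of the 10 genes, with 9 entries since Matn4 has alternative start sites. Each runs from 250 bases before to 50 bases after a start. Sox9 and Comp had no matched entry, so their promoters were not searched. The windows below belong to Otor, Matn4 and 1500015O10Rik. They are shown because, of the 8 genes, these had more than 100 normalized counts in every WT library and no overlap between WT and hTNFtg SFs. They are written 5′ to 3′ along the strand of the gene, and capitals mark a TATAAA match. Their positions are chr2:143078143-143078442 for Otor, chr2:164405111-164405410 and chr2:164404769-164405068 for Matn4 starts 1 and 2, and chr1:43730352-43730651 for 1500015O10Rik.
Otor: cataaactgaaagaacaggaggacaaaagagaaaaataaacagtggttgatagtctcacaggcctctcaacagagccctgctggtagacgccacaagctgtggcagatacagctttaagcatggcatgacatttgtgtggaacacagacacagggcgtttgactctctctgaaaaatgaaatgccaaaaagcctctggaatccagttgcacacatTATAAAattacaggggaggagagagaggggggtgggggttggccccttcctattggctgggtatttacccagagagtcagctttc
Matn4 start 1: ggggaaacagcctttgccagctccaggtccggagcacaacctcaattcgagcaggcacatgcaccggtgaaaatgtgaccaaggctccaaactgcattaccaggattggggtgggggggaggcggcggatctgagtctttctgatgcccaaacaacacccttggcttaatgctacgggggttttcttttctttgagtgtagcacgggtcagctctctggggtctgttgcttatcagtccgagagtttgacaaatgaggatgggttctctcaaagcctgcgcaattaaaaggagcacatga
Matn4 start 2: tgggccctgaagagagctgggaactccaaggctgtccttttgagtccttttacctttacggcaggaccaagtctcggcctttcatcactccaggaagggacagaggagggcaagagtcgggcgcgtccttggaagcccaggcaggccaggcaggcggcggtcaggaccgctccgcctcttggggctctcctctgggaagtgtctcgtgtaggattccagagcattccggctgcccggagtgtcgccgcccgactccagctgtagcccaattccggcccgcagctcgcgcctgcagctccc
1500015O10Rik: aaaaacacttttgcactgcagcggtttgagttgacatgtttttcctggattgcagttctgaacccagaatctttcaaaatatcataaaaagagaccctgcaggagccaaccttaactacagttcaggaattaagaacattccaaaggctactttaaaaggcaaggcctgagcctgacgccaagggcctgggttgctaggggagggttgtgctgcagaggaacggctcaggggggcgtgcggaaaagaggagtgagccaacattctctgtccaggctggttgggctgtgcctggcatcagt

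The base composition of these windows varied, with 47.3% G or C for Otor, 52.7% and 64% for the Matn4 starts and 50% for 1500015O10Rik. The median over all 32851 promoters of the table was 52.7%. The motifs searched on both strands were the SOX-like ACAAAG and ACAATG, an NF-kB-like motif of GGGA and TTCC with any 2 bases between them, the AP-1-like TGANTCA and, chosen after the sequences had been seen, TATAAA. Among the 9 windows, ACAATG was found once, 154 bases before the Sox5 start, and TATAAA in Otor and Chad, 35 and 28 bases before the start. The Sox5 window belongs to a start at 143947106 within the annotated gene. Neither ACAAAG nor the NF-kB-like motif was in any of the 9, and nor was TGANTCA. Of all promoters of this length, 18.7% held ACAAAG, 12.6% ACAATG, 1.47% the NF-kB-like motif, 7.81% TGANTCA and 13.6% TATAAA. A match is a description of these letters only.

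The question whether the SFs of arthritic mice differ from WT was addressed by fitting limma to log2 of the normalized count plus 1 over every gene detected in 1 or more of the 6 libraries. A call of raised or lowered needed both a change of 2-fold or more on this scale and a P under 0.05 before adjustment. For hTNFtg against WT, 6 of the 10 genes (Sox9, Comp, Matn4, Otor, 1500015O10Rik and Acan) were called lowered and 0 raised, where 3.04% of 28522 genes were lowered and 3.35% raised. The raised genes numbered 956, and 1510 without hTNFtg replicate 1. The groups did not overlap, with hTNFtg lower, for those 6 genes and for 5.8% of all genes. Because these libraries were known when the genes were chosen, nothing is read from the counts. On the log2(normalized count + 1) scale, Otor and Matn4 were lowest relative to WT, with log2 fold changes of -5.43 (standard error 0.83) and -5.43 (standard error 0.77). Comp followed at -3.42 (standard error 0.42), Sox9 at -2.95 (standard error 0.32) and 1500015O10Rik at -2.44 (standard error 0.35). Hapln1 at -2.04 (standard error 0.98), Sox5 at -0.53 (standard error 0.71) and Matn3 at -0.19 (standard error 0.86) did not pass the call. Hapln1 was at -1.16 without hTNFtg replicate 1, where it had 0 reads, and was called lowered without hTNFtg replicate 3, at -2.66, and with edgeR, array quality weights, robust eBayes or the replicate block. Sox5 was at -0.093 without hTNFtg replicate 2.

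The median log2 fold change of the 10 genes was -2.70, and -2.24 with Acan at its bound and Chad at 0, while that of all genes was 0.00. Without hTNFtg replicate 1, in which both genes were at 0 reads, the log2 fold changes of Matn4 and Otor were -4.38 and -4.28, those of Comp and Sox9 were -3.02 and -2.84, and 6 genes were still called lowered.

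In infliximab-treated versus untreated hTNFtg SFs, which asks what blocking TNF for 48 h does to these cells, Comp and Sox9 were the 2 of the 10 genes called raised, and 0 were called lowered. Among all 28540 genes tested, 1.49% were raised and 0.936% lowered. These shares, of 426 and 267 genes, were unstable, since with 1 library left out 298 to 700 genes were raised and 120 to 930 lowered. This comparison uses the same untreated hTNFtg libraries in which the genes were known to be low. Sox9 had a log2 fold change of 1.10 (standard error 0.33) and Comp of 1.14 (standard error 0.46), with an adjusted p of 0.803 for both by limma with Benjamini-Hochberg adjustment over all genes tested. Under the alternatives the adjusted p ranged from 0.0998 to 0.914 for Sox9 and from 0.146 to 0.914 for Comp. No gene of the table had an adjusted p under 0.05 here, where 1026 genes had an unadjusted P under 0.05 and edgeR on approximate reads gave 165 genes with an adjusted p under 0.05. The groups did not overlap, with infliximab higher, for Sox9 and Otor, against 3.99% of all genes. Without infliximab replicate 3, where fewer libraries had to be separated, this held for 5 of the 10 genes.

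The other 8 genes did not pass the call. Otor and Matn4 had log2 fold changes of 1.93 and 1.76 with wide 95% intervals, -0.21 to 4.06 and -0.57 to 4.09. Without hTNFtg replicate 1, where both genes were at 0 reads, these values were 0.77 and 0.71. For 1500015O10Rik the value was 0.14, with a 95% interval of -0.65 to 0.94, and for Sox5 it was -0.66, with an interval of -2.57 to 1.25, and from -1.12 to -0.18 with 1 library left out, lowest without infliximab replicate 1 and closest to 0 without infliximab replicate 3. Hapln1 at 0.81 (interval -1.50 to 3.12) and Matn3 at 0.28 (interval -1.61 to 2.17) were as imprecise, and Acan and Chad were at the floor of the untreated group. The median over the 10 genes was 0.63, and 0.55 with Acan and Chad at 0, where the median of all genes was 0.00. The calls of Comp and Sox9 did not hold without hTNFtg replicate 1, infliximab replicate 1 or infliximab replicate 2, where 0 of the 10 genes were called raised. The log2 fold change of Sox9 stayed close to the limit of 1 in these fits, at 0.99, 0.97 and 0.91, while that of Comp was 0.74, 0.76 and 1.02. Without hTNFtg replicate 3, Comp was at 1.18 with an unadjusted limma P of 0.0504 and lost its call as well. Without infliximab replicate 3, the library with hepatocyte genes, Comp and Sox9 had log2 fold changes of 1.64 and 1.42 and 2 genes were called raised.

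In infliximab-treated hTNFtg versus WT SFs, which shares the WT libraries with the comparison known at the choice, 7 of the 10 genes were called lowered and 0 raised. These were 1500015O10Rik, Acan, Chad, Comp, Matn4, Otor and Sox9, with Chad at or under the floor in both groups. The shares over all 28243 genes were 2.95% lowered and 3.86% raised. The groups did not overlap, with infliximab lower, for 8 of the 10 genes, the 7 above and Sox5, and for 7.07% of all genes. Matn4 and Otor were again lowest, at log2 fold changes of -3.67 (standard error 0.60) and -3.51 (standard error 0.38). Acan stood at -2.81 (standard error 0.80), 1500015O10Rik at -2.30 (standard error 0.35), Comp at -2.28 (standard error 0.40) and Sox9 at -1.85 (standard error 0.30). Acan was at 0, 4 and 0 normalized counts with infliximab, so its value is imprecise. It was from -3.59 to -2.43 with 1 library left out and from -3.46 to -1.43 under other settings. The median over the 10 genes was -2.06 with and without bounds, where that of all genes was 0.00. Without infliximab replicate 3, Matn4 was at -2.90 and Otor at -3.24, Comp and Sox9 were at -1.78 and -1.53 and 7 genes were called lowered. Leaving out each library in turn gave -4.38 to -2.90 for Matn4 and -3.85 to -3.24 for Otor. The ranges were -2.65 to -1.78 for Comp and -2.07 to -1.53 for Sox9.

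**Figure D3:**
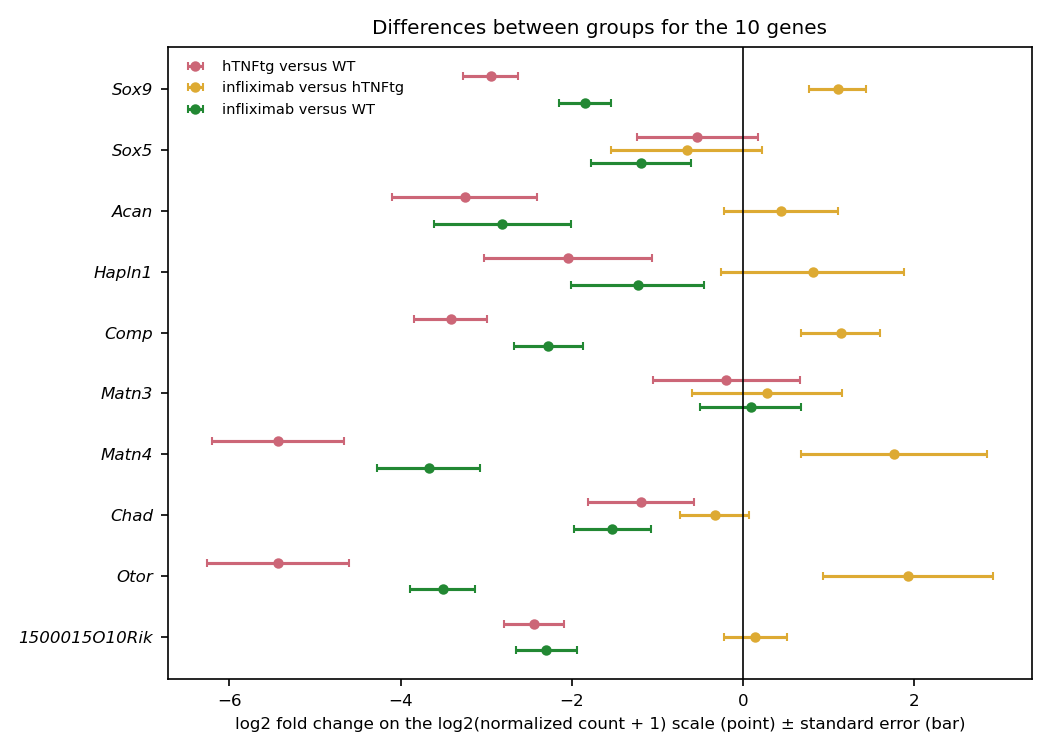
Log2 fold change on the log2(normalized count + 1) scale (horizontal axis; points, with bars of 1 standard error) of the 10 genes in 3 comparisons. Sox9 lies at -2.95 in hTNFtg versus WT SFs, at 1.10 in infliximab-treated versus untreated hTNFtg SFs and at -1.85 in infliximab-treated versus WT SFs; Acan and Chad are at the floor in untreated hTNFtg SFs, so their points are no measure of a fold.

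The level of each gene was also taken relative to Sox9 within each library. Such a ratio compares a gene between libraries and not the levels of different genes, and it was not tested. Comp was 461%, 248% and 376% of Sox9 in WT SFs, 172%, 312% and 307% in hTNFtg SFs and 367%, 237% and 204% with infliximab. This ratio overlapped between all groups. Otor was 11.5%, 14.8% and 14.3% of Sox9 in WT SFs, 0%, 3.68% and 5.59% in hTNFtg SFs and 5.50%, 2.80% and 4.27% with infliximab. Matn4 was 17.7%, 11% and 8.25% in WT SFs, 0%, 2.57% and 5.03% in hTNFtg SFs and 7.21%, 2.62% and 1.42% with infliximab. For both genes every WT library was above every library of the other groups. The 0% in hTNFtg replicate 1 has an upper limit of 13.2% from the exact 95% Poisson interval of 0 reads, which reaches into the WT ratios.

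The ratio of 1500015O10Rik to Sox9 went another way. It was 20.9%, 18.9% and 29.5% in WT SFs and 39.7%, 23.9% and 34.6% in hTNFtg SFs, which overlapped. With infliximab it was 17.8%, 15.2% and 16.4%, below every library of both other groups. In these libraries Sox9 was higher than in untreated hTNFtg SFs, while 1500015O10Rik overlapped with them. In hTNFtg replicate 1 this ratio rested on 11 and 28 reads.

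**Figure D4:**
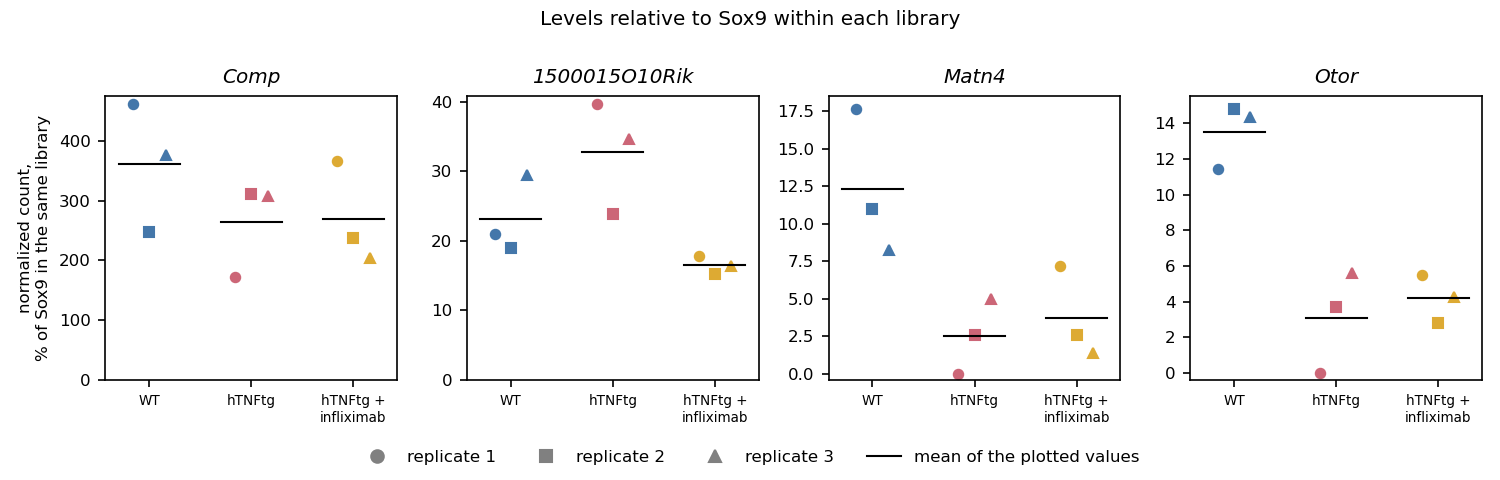
Normalized count of Comp, 1500015O10Rik, Matn4 and Otor as a percentage of that of Sox9 in the same library (vertical axes, different ranges), by group, with a line at the group mean. The Comp ratio overlaps between groups, the Matn4 and Otor ratios are highest in WT SFs, and the 1500015O10Rik ratio is lowest with infliximab, between 15.2% and 17.8%.

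Replicates of a group differed in level across the 10 genes. WT replicate 3 had the highest value of its group for 7 of the 10 genes and infliximab replicate 3 the lowest for 7 of 10. In untreated hTNFtg SFs, replicate 1 was lowest for 6 of 10, among them genes at 0 where 1 read is worth 6.23 normalized counts.

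A wider list of 34 cartilage genes, which includes collagens and was drawn up from known function with earlier results in view, was read in the same fits. Between hTNFtg and WT SFs, 10 of the 31 tested were lowered and 1 was raised, beside 3.04% and 3.35% of all genes, with a median log2 fold change of -0.56. With genes at the floor set to their bounds this median was -0.08. The lowered genes were Cilp, Col27a1, Col9a1, Col9a2, Fgfr3, Hapln3, Lect1, Matn2, Pth1r and Ucma, and 3 of the 31, Fgfr3, Matn2 and Cilp, had an adjusted p under 0.05 by limma. Ucma had a WT mean of 5 normalized counts, under the mean floor of 7.62 in hTNFtg SFs, so its call gives no measure of a fold. Col9a1 and Col9a2 were at 0 in each hTNFtg library, so only bounds hold for them. They were at least 1.49-fold and 2.06-fold lower, or at least 5.44-fold and 7.51-fold lower without hTNFtg replicate 1. Col9a1 was also at 1 in WT replicate 1. Fgfr3, a receptor that restrains growth of cartilage, had a mean of 79.7 ± 19.9 (SD, n = 3) in WT and of 3.33 ± 4.16 (SD, n = 3) in hTNFtg SFs. It changed by -4.72 on the log2 scale (standard error 0.80), with an adjusted p of 0.0278 by limma. Matn2, a matrilin found widely outside cartilage, went from 451 ± 26.6 (SD, n = 3) to 94.3 ± 39.6 (SD, n = 3), by -2.35 on that scale (standard error 0.36, limma adjusted p = 0.0199). Cilp, which encodes a protein of the cartilage intermediate layer, went from 363 ± 191 (SD, n = 3) to 61.7 ± 34.5 (SD, n = 3), by -2.57 (standard error 0.46, limma adjusted p = 0.0370). With any 1 library left out, the log2 fold changes were -5.51 to -3.92 for Fgfr3, -2.60 to -1.95 for Matn2 and -2.99 to -2.16 for Cilp. None of the 3 genes had an adjusted p under 0.05 in those fits, which hold fewer libraries. Their adjusted p was from 0.0609 to 0.485 for Fgfr3, 0.0632 to 0.392 for Matn2 and 0.0577 to 0.485 for Cilp by limma. With the replicate number as a block the adjusted p-values were 0.505, 0.478 and 0.478. That of Cilp was also 0.0596 with a pseudocount of 5 and 0.0551 with the mean filter. All 3 kept the call of lowered in these fits, and edgeR on approximate reads gave at most 3.41e-06. Pth1r, the parathyroid hormone receptor, had a log2 fold change of -2.65 and an adjusted p of 0.159 by limma, and was at -1.67 without hTNFtg replicate 1. Lect1, which encodes chondromodulin, had at most 3 reads in each hTNFtg library and was at least 2.36-fold lower, or at least 8.63-fold lower without replicate 1, whose depth sets this floor. Its call was lost without WT replicate 1 or 3 and without hTNFtg replicate 2 or 3, at log2 fold changes from -2.88 to -2.36.

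The gene that rose was Chst11, a chondroitin sulfotransferase, at 18, 20 and 7 normalized counts in WT SFs and 56, 57 and 86 in hTNFtg SFs. The change came to 2.16 on the log2 scale (standard error 0.51), with an adjusted p of 0.118 by limma. Genes of the list at higher levels that did not pass the call were Col11a1, at 284 ± 67.5 (SD, n = 3) in WT and 278 ± 46.0 (SD, n = 3) in hTNFtg SFs, and Prg4, the lubricin gene, at 332 ± 39.1 (SD, n = 3) and 490 ± 94.1 (SD, n = 3). Trps1 went from 285, 194 and 183 to 174, 161 and 113 and Runx2 from 120, 113 and 128 to 87, 64 and 75, with log2 fold changes of -0.56 and -0.68 under the limit for a call. Of the 31 genes, 12 had every hTNFtg library below every WT library, beside 5.8% of all genes, and 2, Chst11 and Prg4, had every one above, beside 5.63%.

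With infliximab, 1 of 29 of these genes was raised over untreated hTNFtg SFs and 0 were lowered, beside 1.49% and 0.936% of all genes, with a median log2 fold change of 0.27, or 0.15 with bounds. The gene was Col9a2, at 0 in all untreated hTNFtg libraries and at 7, 5 and 0 with infliximab. Its treated mean of 4 ± 3.61 (SD, n = 3) was under the mean floor of the untreated group, so no fold is given, and the call was lost without hTNFtg replicate 1 and without infliximab replicate 1 or 2. Against WT, infliximab-treated SFs had 11 of 33 genes lowered and 1 raised, Chst11, beside 2.95% and 3.86% of all genes, with a median of -0.38, or -0.07 with bounds. The lowered genes were Cilp, Col27a1, Col9a1, Col9a2, Fgfr3, Hapln3, Lect1, Matn2, Pth1r, Sox6 and Ucma. Col9a1, Lect1 and Ucma did not exceed the floor in any infliximab library. They were at least 4.13-fold, 6.56-fold and 1.82-fold lower than in WT SFs. Sox6, which encodes a partner of SOX5, was at 29, 28 and 29 in WT SFs and 7, 13 and 14 with infliximab. Hapln3 and Col27a1 had log2 fold changes of -2.38 and -1.71 there. Some of these calls did not hold. That of Hapln3 was lost without WT replicate 1 or 2, at log2 fold changes of -2.13 and -2.45. That of Col9a2 was lost without any 1 of the WT libraries, at -2.32 to -1.94, where the main fit gave -2.16. That of Chst11 was lost without WT replicate 3 or infliximab replicate 2 or 3, at 1.08, 1.57 and 1.11, where the main fit gave 1.52. All 3 were lost with the replicate block. Without infliximab replicate 1, Hapln3 was at -1.49 and kept its call.

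Cell type markers moved between the same groups, and their part in the results was not tested. Of the chondrocyte genes named at the outset, Acan, Col9a1, Lect1 and Ucma were the 4 of 7 tested called lowered in hTNFtg versus WT SFs, beside 3.04% of all genes, and the same 4 of 8 were called lowered with infliximab versus WT, beside 2.95%. These are not separate calls, since the chondrocyte genes were already counted above. Acan and Matn3 are among the 10 genes, and the rest are on the wider list of cartilage genes. The summed normalized count of 12 macrophage markers was 196 to 705 in WT SFs, 3175 to 6594 in hTNFtg SFs and 2090 to 4315 with infliximab. Of these, 9 of 12 were called raised in hTNFtg versus WT SFs, beside 3.35% of all genes, led by Lyz2, although CD45+ cells had been depleted. In infliximab-treated versus WT SFs 10 of 12 were called raised, beside 3.86% of all genes. In infliximab-treated versus untreated hTNFtg SFs 2 of 12, C1qb and Itgam, were called lowered, beside 0.936% of all genes. Ptprc, which encodes CD45 itself, was at 0, 3 and 0 in WT and at 31, 9 and 12 in hTNFtg SFs. Of 9 osteoblast markers, 7 were tested in hTNFtg versus WT SFs. Of these 7, Sp7, Ibsp and Alpl were called lowered and Spp1 raised, beside 3.04% and 3.35% of all genes. Sp7, the bone regulator osterix, was at 65, 80 and 90 in WT SFs, 0, 2 and 2 in hTNFtg SFs and 9, 4 and 1 with infliximab. Of 8 tendon markers, all tested, Fmod, Mkx and Thbs4 were called lowered in hTNFtg versus WT SFs and Scx raised, beside the same shares. The sum of the 8 ranged from 8092 to 9959 in WT SFs, from 3225 to 5953 in hTNFtg SFs and from 4626 to 6962 with infliximab. In infliximab-treated versus untreated hTNFtg SFs, Comp and Sox9 were called raised. There 1 of 8 tendon markers, Mkx, and 1 of 9 osteoblast markers, Alpl, were called raised too. None of either list was called lowered, beside 1.49% of all genes raised and 0.936% lowered. Mkx had a log2 fold change of 1.62, from 6, 36 and 12 in untreated to 44, 76 and 27 in treated SFs. Alpl was at 3.22 (standard error 1.17), from 0, 89 and 17 to 129, 206 and 48. Both genes overlapped between the groups. In hTNFtg replicate 1, where Alpl was at 0, 3 reads are worth 18.7 normalized counts, so its fold is uncertain. The tendon marker Tnc was at -0.66, with every treated library below every untreated one. Of 10 fibroblast markers, Lum alone was called lowered and Pdpn alone raised against WT in both hTNFtg groups, at -1.69 and 2.01 in hTNFtg versus WT SFs. Of all genes, 3.04% were lowered and 3.35% raised there, and 2.95% and 3.86% in infliximab-treated versus WT SFs.

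**Figure D5:**
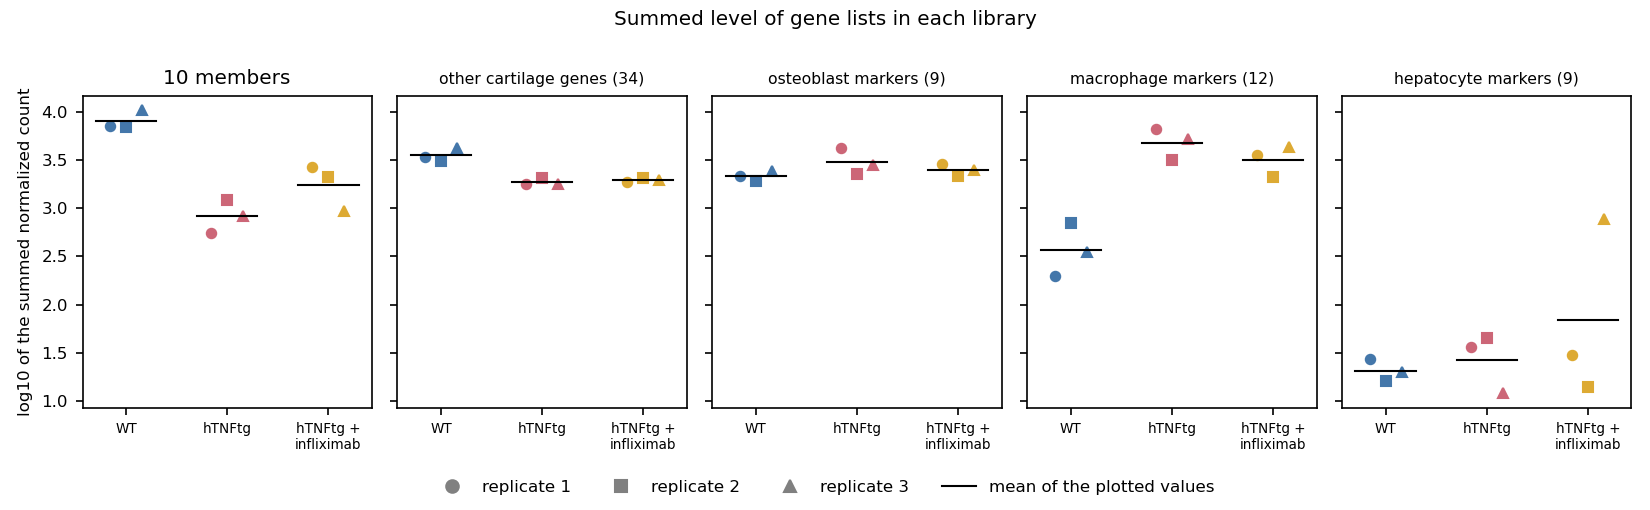
Log10 of the summed normalized count (vertical axis) of the 10 genes and of 4 gene lists in each library, by group, with a line at the mean of the plotted values and the number of genes in brackets. The 10 genes are highest in WT SFs, macrophage markers are lowest there, and hepatocyte markers reach 766 normalized counts in infliximab replicate 3 alone.

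The genes outside the list whose pattern was most like the mean pattern of the 10 were found among 13595 genes with a mean of at least 10. Likeness was the root mean square difference of centred log2(normalized count + 1) values over the 9 libraries. The nearest were Ggt5 at 0.25, Mterf4 at 0.27, Matn2 at 0.28, Pdp1, Sned1, Plagl1 and Igfbp2 at 0.30 and Adh7 at 0.37. Of the 10 genes themselves, Sox9 was nearest to their mean pattern at 0.38 and Comp was at 0.43, while Otor and Matn4 were far from it at 1.30 and 1.34. Ggt5, a gamma-glutamyltransferase, stood at 164 ± 21.1 (SD, n = 3) for WT, 19.7 ± 6.81 (SD, n = 3) for hTNFtg and 34.3 ± 12.6 (SD, n = 3) with infliximab.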

How the data were processed

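RNA of 9 cultures of mouse ankle SFs was sequenced near the 3′ end of transcripts (QuantSeq, Ion Proton). The authors mapped reads to mm10 with TopHat2 and then Bowtie2, counted them per gene with GenomicRanges and normalized the counts. DESeq is named for their differential expression, and the steps ran through metaseqR. Versions are not given in the sources used here. The values that the authors deposited are a rounded score per gene and library, taken here as gene counts times 1 factor per library. For hTNFtg replicate 1 the deposited signal is whole reads times 6.23, as 100% of its values up to 150 lie within 0.5 of a multiple. This library was treated like the others and the planned test was kept. In the other libraries, where 1 read is worth at most 1.10 normalized counts, a match to multiples says little. There the single factor was assumed and reads are approximate. Deposited columns not used were 12 further normalized per-sample columns, and the p-value, log2 and fold change columns of the authors' own comparisons.

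The 10 genes and all gene lists were chosen with earlier results of these data known. Groups came from the labels. Nothing but the study's statement of biological replicates says how cultures were separated. The limma p-values thus set a group difference against the spread between these samples, moderated over genes. limma 3.58.1 (lmFit, eBayes with trend) in R 4.3.3 was fitted to log2(normalized count + 1) of the 6 libraries compared, with Benjamini-Hochberg adjustment over all genes tested, after tests on simulated data. Medians with bounds put a gene that no library of 1 group holds above 3 reads at its bound, and to 0 if both groups were so. The text names all 10 genes. Of the 34 other cartilage genes it names those called, or, above 6, the 6 with the largest change and a mean of at least 10. It also names the 8 most similar genes and marker genes at 0 or most abundant. Genes named outside this rule (Col9a1, Ucma, Sox6, Col11a1, Prg4, Trps1, Runx2, Matn1, Col11a2, Ptprc, C1qb, Itgam, Lum, Pdpn, Sp7, Ibsp, Alpl, Spp1, Fmod, Mkx, Thbs4, Scx, Tnc and the overlapping genes Gm29155 and Acsf2) were chosen after their values were seen.

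Alternatives were a pseudocount of 0.5 or 5, a mean of at least 10, median ratio rescaling, quantile normalization, array quality weights, robust eBayes, the replicate block, all 9 libraries in one fit, edgeR 4.0.16 on approximate reads, and each library left out. Sequences were read from RefSeq promoters of GRCm38.p6.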

Additional observations from a re-analysis of the deposited data

How the results depend on the processing

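For the 10 genes and the other cartilage genes, counts of calls against WT stayed within 1.5 times under all alternatives run. Of the 10 genes, those called lowered were 6 in hTNFtg versus WT SFs (5 to 8 under other settings, 6 to 8 with 1 library left out) and 7 in infliximab-treated versus WT SFs (5 to 9, and 7 to 8 with 1 library left out). Of the other cartilage genes 11 and 12 were called in these comparisons, 1 of them raised in each (8 to 13 called in both). The count of 8 of the 10 genes with groups apart in treated versus WT SFs became 5 with the mean filter, which tests fewer genes. Counts over all genes moved further. In hTNFtg versus WT SFs 867 were lowered (525 to 1322) and 956 raised (658 to 2218), in treated versus untreated SFs 267 lowered (120 to 1390) and 426 raised (193 to 754), and in treated versus WT SFs 833 lowered (443 to 1155) and 1090 raised (595 to 1361). The count of 2 of the 10 genes raised with infliximab over untreated hTNFtg SFs did not hold. It was 0 with array quality weights, 1 with the mean filter and 3 with all 9 libraries, edgeR or robust eBayes, and it ranged from 0 to 2 with 1 library left out. The 1 other cartilage gene called there became 0 with a pseudocount of 5 or the mean filter and 2 with array quality weights, and ranged from 0 to 3 with 1 library left out (3 without infliximab replicate 3). The cause was not tested. Sox9 had a log2 fold change of 0.86 with array quality weights and 0.91 to 1.42 with 1 library left out. Comp had 0.67 with these weights and 0.74 to 1.64 with 1 library left out.

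With the replicate number as a block, 1 of the 10 genes was raised with infliximab over untreated hTNFtg SFs (Sox9), and 0 of the other cartilage genes. In both other comparisons the block gave 7 of the 10 lowered. Deviations of samples with the same number correlated at 0.29, -0.14 and 0.35 for hTNFtg and WT SFs, at 0.07, 0.20 and 0.27 for treated and untreated hTNFtg SFs and at 0.10, -0.15 and 0.01 for treated and WT SFs. The same number gave the best match for replicates 1 and 3 of hTNFtg and WT SFs. It did so for replicates 2 and 3 of treated and untreated hTNFtg SFs and for replicate 1 of treated and WT SFs. With 3 samples per group this cannot decide whether the numbers are pairs. They were not taken as pairs in the main fits.

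Of 890 log2 fold changes under alternatives, 815 kept direction and side of the call, 34 lost the call, 19 gained it and 22 changed sign. Matn3 became 0.40 (array quality weights), 0.34 (edgeR), 0.15 (without WT replicate 3) and 0.53 (without hTNFtg replicate 1) in hTNFtg versus WT SFs. It became -0.21 (array quality weights), -0.35 (edgeR) and -0.44 (without hTNFtg replicate 1) in treated versus untreated SFs, and -0.0043 (edgeR), -0.23 (without WT replicate 2) and -0.05 (without infliximab replicate 3) in treated versus WT SFs. The others were in treated versus untreated SFs. Array quality weights gave Sox5 0.11, Hapln3 -0.67, Lect1 0.76 and Pth1r -0.21, and edgeR gave Pth1r -0.25. Leaving out hTNFtg replicate 1 gave Hapln1 -0.076, Lect1 0.86 and Pth1r -0.71, and leaving out hTNFtg replicate 3 gave Col27a1 -0.18. Leaving out infliximab replicate 1 gave 1500015O10Rik -0.043, replicate 2 gave Acan -0.33 and replicate 3 gave Lect1 0.06. With 1 library left out, Matn3 ranged from -0.64 to 0.53, -0.44 to 0.72 and -0.23 to 0.43 in the 3 comparisons. The ranges for treated versus untreated SFs were -0.33 to 0.83 for Acan, -0.076 to 1.42 for Hapln1, -0.043 to 0.46 for 1500015O10Rik, -0.18 to 0.62 for Col27a1, -0.99 to 0.86 for Lect1 and -0.71 to 0.92 for Pth1r. Depth limits Acan, Chad, Matn3, Hapln1 and Sox5, which had few reads, and all low values in hTNFtg replicate 1. Rescaling moved the median of all genes by less than 0.1.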
